A study of Mus musculus with 16 samples.

Results

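The phase II conjugating enzymes of the glutathione transferase (GST), UDP-glucuronosyltransferase (UGT) and cytosolic sulfotransferase (SULT1) families were followed in nuclear RNA of the mouse colon. The genes were all protein-coding genes of the count table whose GRCm38 symbol begins with Gsta, Gstm, Gstp, Gstt, Gsto, Gstk, Mgst, Ugt1a, Ugt2 or Sult1, which gave 49 of 51912 genes in 10 families. They comprise 21 soluble GST genes, counting the mitochondrial and peroxisomal Gstk1, 3 membrane-bound Mgst genes, 9 Ugt1a genes, 10 Ugt2 genes and 6 Sult1 genes. A further 4 pseudogenes with the same prefixes were not included.

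All groups were C57BL/6 mice kept free of specific pathogens and injected intravenously with AAV9-CaMKII-EGFPKASH, a virus in which a CaMKII promoter drives a green tag of the nuclear envelope, 5 weeks before the outer muscle layer with its myenteric plexus was taken. The 4 groups were neuronal (EGFP+) nuclei after the aryl hydrocarbon receptor (AhR) agonist 3-methylcholanthrene, neuronal nuclei after corn oil, non-neuronal (EGFP-) nuclei after the agonist and non-neuronal nuclei after corn oil, with 4 libraries each. The agonist or corn oil was injected intraperitoneally 14 hours before the nuclei were isolated. The labels give neither the dose nor the age or sex of the mice. Whether libraries of 1 group come from separate mice is not stated either, so the p-values measure only the spread between these samples. EGFP- nuclei were not selected for a cell type, and a neuron in which the promoter was silent would be counted among them.

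Phase II enzymes attach a polar group to a foreign or endogenous compound so that it can be exported. GSTs add glutathione to electrophiles, UGTs add glucuronic acid in the endoplasmic reticulum, and sulfotransferases add sulfate in the cytosol. AhR is a transcription factor that binds planar aromatic compounds, and in rodent liver it is known to induce Ugt1a6 and some GST genes together with the oxidising enzyme Cyp1a1. In the gut wall, UGTs and SULT1 enzymes are best known from the absorptive epithelium, which lines the lumen and does not belong to the muscle layer that was sampled.

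Promoter sequences are shown for 5 genes on which the results below turn, with the core of the AhR binding element in capitals. Each is the 250 bases before the RefSeq transcription start on GRCm38.p6, 5′ to 3′ on the gene's strand. Ugt2b34 (chr5:86906938-86907187, minus strand) and Ugt1a6a (chr1:88134559-88134808, plus strand) were lower in neuronal nuclei under both treatments, and neither window holds the core. Ugt1a5 (chr1:88165762-88166011, plus strand), Sult1d1 (chr5:87569007-87569256, minus strand) and Gstp1 (chr19:4037913-4038162, minus strand) hold it 49, 47 and 13 bases before the start.
Ugt2b34: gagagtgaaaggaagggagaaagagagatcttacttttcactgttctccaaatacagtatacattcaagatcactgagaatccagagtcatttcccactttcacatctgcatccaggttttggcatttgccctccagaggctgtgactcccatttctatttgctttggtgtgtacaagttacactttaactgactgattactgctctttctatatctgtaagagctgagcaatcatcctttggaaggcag
Ugt1a6a: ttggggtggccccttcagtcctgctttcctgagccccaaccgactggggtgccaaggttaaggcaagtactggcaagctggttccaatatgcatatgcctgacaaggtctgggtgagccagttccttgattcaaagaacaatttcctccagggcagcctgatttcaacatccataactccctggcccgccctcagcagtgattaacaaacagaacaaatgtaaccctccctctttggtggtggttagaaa
Ugt1a5: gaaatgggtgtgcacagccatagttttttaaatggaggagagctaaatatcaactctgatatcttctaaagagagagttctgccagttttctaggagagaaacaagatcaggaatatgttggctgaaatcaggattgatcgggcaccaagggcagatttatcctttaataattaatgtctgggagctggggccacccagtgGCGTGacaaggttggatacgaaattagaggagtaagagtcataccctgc
Sult1d1: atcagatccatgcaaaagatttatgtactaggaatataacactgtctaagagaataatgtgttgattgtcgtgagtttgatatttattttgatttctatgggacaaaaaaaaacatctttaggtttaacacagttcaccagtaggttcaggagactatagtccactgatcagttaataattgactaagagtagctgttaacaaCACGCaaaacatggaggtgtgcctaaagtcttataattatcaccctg
Gstp1: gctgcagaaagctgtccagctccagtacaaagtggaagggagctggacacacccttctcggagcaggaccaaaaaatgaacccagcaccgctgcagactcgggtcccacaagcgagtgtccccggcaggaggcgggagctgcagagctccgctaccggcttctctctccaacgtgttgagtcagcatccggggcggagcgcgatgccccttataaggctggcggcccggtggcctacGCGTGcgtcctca
The core was searched as GCGTG on both strands, so that CACGC marks it on the other strand, as in Sult1d1. It occurred in 20% of the windows of these families (11 of 55, some genes having several starts) and in 28.2% of all 32851 RefSeq windows of that length. The same Gstm1 site lies in 2 overlapping windows and was counted in both. Gsta4, Gstt2 and Ugt1a6b had no window. A RefSeq start of Gsta2 lay 8643 bases, and 1 of Gstm6 9717 bases, from the GENCODE gene start. The core of the antioxidant response element, TGACNNNGC on either strand, occurred in 7.27% of the family windows (Gsta3, Gstm5, Gstm7 and Mgst1) and in 10.2% of all windows, and in Gstm5 it overlaps a GCGTG match. A match describes the letters and not a bound site.

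Total counts ran from 2663738 to 4902303 per library. Between 10 and 21 of the 49 genes had a count in each neuronal agonist library and 20 to 30 in each neuronal corn oil library, against 30 to 41 and 33 to 39 in the non-neuronal agonist and corn oil libraries. All levels below are CPM on TMM-scaled library sizes. The 12 neuronal markers summed to between 3703 and 6196 CPM in neuronal libraries and between 129 and 585 CPM in non-neuronal libraries, and all 12 had counts in every group. The 16 epithelial markers also had counts in every group but the neuronal agonist one, where Krt18 and Cdx1 were at 0. They summed to 5.33 to 129 CPM in neuronal libraries and 1564 to 17200 CPM in non-neuronal libraries. Non-neuronal agonist library 1 stood apart, with 3785 CPM over all 49 genes against 596 to 1092 CPM in the other 3 libraries of its group, and mitochondrially encoded genes took 42.8% of its counts against 10.3% to 33.3% there. Values without that library are given beside the results it moved most.

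**Figure D1:**
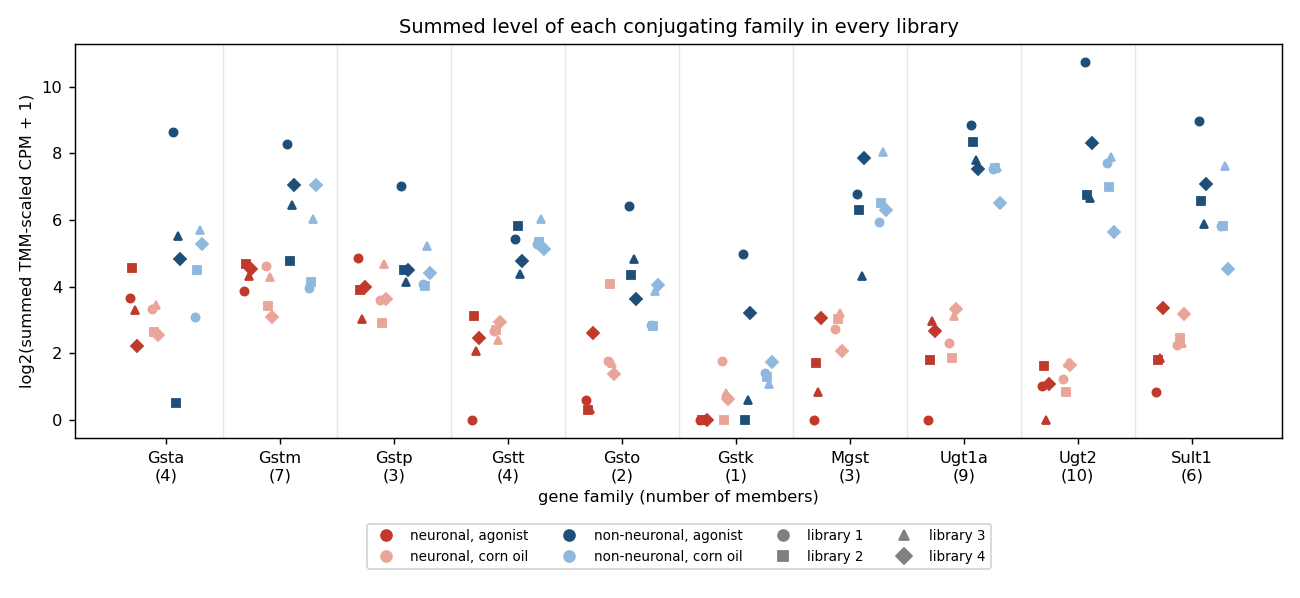
Summed level of each of the 10 gene families in every library, as log2 of the TMM-scaled CPM plus 1; colours give the 4 groups and marker shapes the library number within a group. The Gstt, Mgst, Ugt1a, Ugt2 and Sult1 families sit higher in non-neuronal than in neuronal libraries, while Gsta, Gstm, Gstp, Gsto and Gstk overlap between the populations.

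Neuronal nuclei carried little RNA of these enzymes, and what they carried was mostly soluble GST. The 49 genes together reached 64.1 ± 14.1 CPM in neuronal agonist libraries and 66.3 ± 12.6 CPM in neuronal corn oil libraries (SD, n = 4 each), of which the 21 soluble GST genes made 52.9 ± 12.5 and 47.6 ± 12.4 CPM. In non-neuronal nuclei the 49 genes reached 1550 CPM on average after the agonist (596 to 3785 CPM, or 805 CPM without library 1) and 689 CPM after corn oil (480 to 1121 CPM). The UGT and SULT1 families made 1055 ± 1086 and 402 ± 193 CPM of these (SD, n = 4 each), and 514 ± 127 CPM after the agonist without library 1 (SD, n = 3). Per kilobase of exon, the highest member in neuronal nuclei was Gstp1, with 10.1 CPM per kilobase after the agonist and 8.67 after corn oil, followed by Gstm1 with 5.52 and 4.94. In non-neuronal nuclei the highest per kilobase were Ugt2b34 with 103 after the agonist, and Mgst2 with 30.5, Sult1a1 with 29.2 and Ugt2b34 with 28.1 after corn oil. Without agonist library 1, Ugt2b34 stood at 33.4 per kilobase after the agonist, below Gstm1 with 42.0. Of the 49 genes, 16 had no count in the neuronal agonist group and 14 had none in the neuronal corn oil group, 8 of them in common, against 3 in each non-neuronal group. A count of 0 here allows 3 counts per group and does not show absence.

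**Figure D2:**
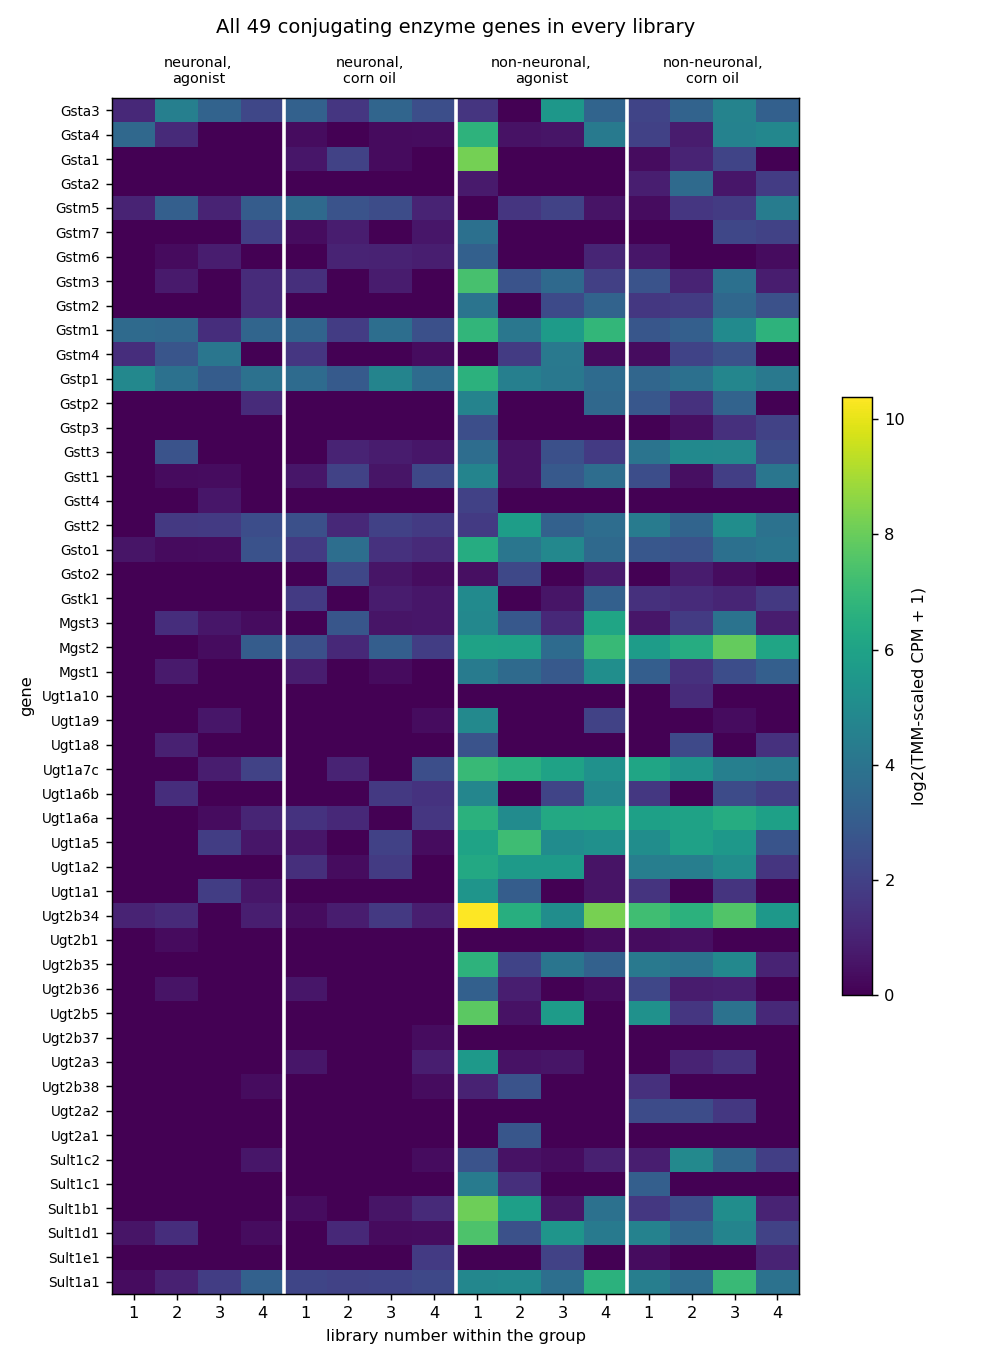
Level of each of the 49 genes (rows, by family) in each of the 16 libraries (columns, by group), coloured by log2 of the TMM-scaled CPM plus 1. Ugt1a6a, Ugt2b34, Mgst2 and Sult1a1 are brighter in every non-neuronal than in any neuronal library, and non-neuronal agonist library 1 holds the brightest cell, Ugt2b34 at 1339 CPM.

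Under corn oil, 14 of the 49 genes passed the count filter between neuronal and non-neuronal nuclei; 8 were lower in neuronal nuclei and none was higher (edgeR quasi-likelihood test, adjusted p under 0.05). Over all 15285 genes tested, 13.5% were lower and 11.8% higher. Under the agonist 15 passed the filter, 11 were lower and none was higher, beside 6.97% lower and 6.67% higher among 14065 genes. The median log2 fold change, neuronal over non-neuronal, was -3.20 for the 14 genes and -0.11 for all genes under corn oil, and -5.30 and -0.15 under the agonist. A gene near 0 in neuronal nuclei could enter these tests only through its counts in non-neuronal nuclei, so neither the counts nor the medians speak for the 49 genes as a whole. Of the 14 and the 15 genes that passed the filter, the 8 and the 11 were also those whose neuronal libraries all lay below all non-neuronal libraries. This was so for 14.3% and 9.13% of all genes tested. Genes that did not pass the filter were not counted here. In bulk nuclei, fewer cells of a type and less RNA per cell cannot be told apart.

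Ugt2b34 and Ugt1a6a had the largest called differences of these genes under both treatments. Ugt2b34, a member of the Ugt2b subfamily that acts on steroids and other lipophilic compounds (chr5:86889767-86906937, minus strand), had 1.03, 1.37, 0 and 0.85 CPM in neuronal agonist libraries, against 1339, 89.8, 33.1 and 309 CPM in non-neuronal ones. The corn oil libraries had 0.27, 0.79, 2.26 and 0.81 CPM in neuronal nuclei, against 145, 103, 190 and 46.2 CPM in non-neuronal nuclei. Every neuronal library was thus below 2.3 CPM and every non-neuronal one above 33 CPM. The log2 fold change, neuronal over non-neuronal, was -9.24 (SE 1.37, edgeR adjusted p = 0.0012) under the agonist and -6.84 (SE 0.64, adjusted p = 1.33e-05) under corn oil. Without non-neuronal agonist library 1 it was -7.54 under the agonist, with the call kept.

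Ugt1a6a, which conjugates small planar phenols, is one of 9 genes that splice their own first exon to shared exons on chromosome 1 (88134809-88218997, plus strand). It had 0, 0, 0.27 and 1.13 CPM in neuronal agonist libraries, against 97.3, 31.5, 75.5 and 78.5 CPM in non-neuronal ones. After corn oil it had 1.87, 1.32, 0 and 2.15 CPM in neuronal libraries and 58.2, 62.7, 84.7 and 59.6 CPM in non-neuronal libraries. The populations were far apart under both treatments, with a log2 fold change of -7.71 (SE 1.20, edgeR adjusted p = 0.000749) under the agonist and -5.62 (SE 0.68, adjusted p = 7.68e-05) under corn oil. Ugt1a7c, another phenol-conjugating first exon, differed by -6.49 (SE 1.24) under the agonist and -4.73 (SE 1.06) under corn oil, and Ugt1a5 by -6.57 (SE 1.29) and -5.21 (SE 1.04), all of them called. Since 51.2% to 78.8% of the 75-base windows of each Ugt1a transcript also occur in another gene, the split of counts among the 9 genes is uncertain. The Ugt1a sum avoids this split: it was 3.70 ± 3.07 CPM in neuronal agonist libraries and 299 ± 125 CPM in non-neuronal ones, and 5.89 ± 3.07 and 164 ± 48.9 CPM after corn oil (SD, n = 4 each), without overlap under either treatment. A further antisense gene, Gm20528, overlaps the cluster, and the strand setting of the counting is not given in the sources used here.

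**Figure D3:**
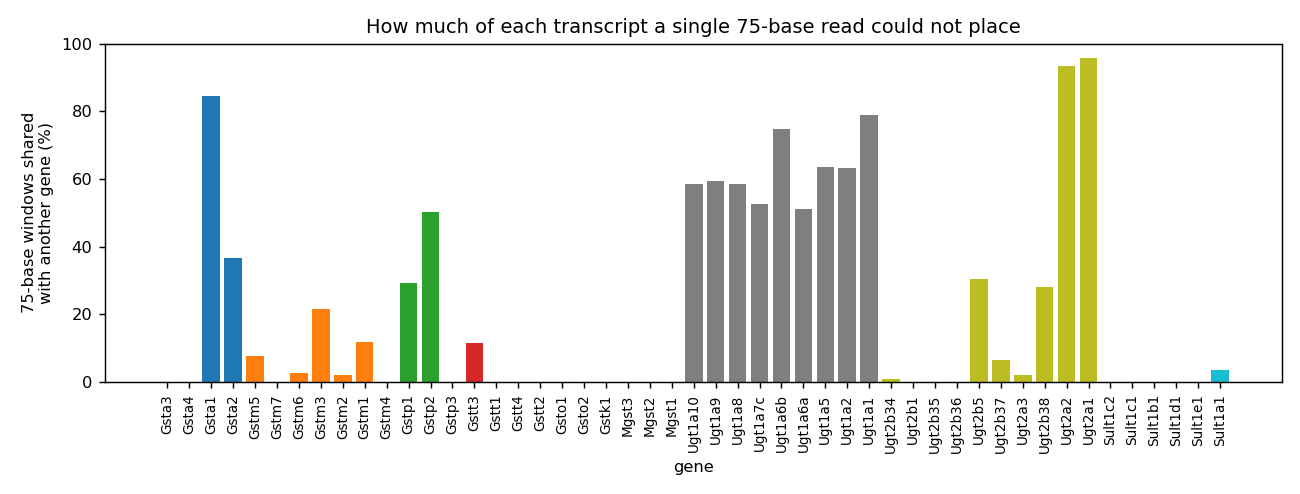
Share of all 75-base windows of each gene's transcripts (y axis, percent) that also occur in the transcripts of another gene, for the 49 genes; colours mark the families. All 9 Ugt1a genes lie above 51%, Ugt2a1, Ugt2a2 and Gsta1 lie above 84%, and Gsto1, the 3 Mgst genes, Sult1b1 and Sult1d1 are at 0.

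Several Ugt2 genes had counts in non-neuronal nuclei and none in neuronal nuclei. They did not pass the count filter between the populations, because their non-neuronal counts were too low in some libraries. Ugt2b5 had 842 counts over the 4 non-neuronal agonist libraries and none in the neuronal ones, which makes it at least 232-fold lower in neuronal nuclei, taking 3 counts over the group as the floor. After corn oil it was at least 59.1-fold lower (no count against 194). Without non-neuronal agonist library 1 the agonist bound was 75.6-fold. Ugt2b35 was at least 113-fold lower under the agonist and at least 63-fold lower under corn oil, and at least 40.7-fold lower under the agonist without that library, which held 305 of its 411 counts. These counts were uneven: Ugt2b5 had 217, 0.41, 50.4 and 0 CPM in the non-neuronal agonist libraries and 36.9, 2.14, 14.3 and 1.29 CPM in the corn oil ones. The bounds cover counting error and not that spread, and 30.4% of the windows of Ugt2b5 are shared with another gene.

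Among the sulfotransferases, Sult1d1 and Sult1a1 were called. Sult1d1, which in the mouse sulfates catecholamines and phenols (chr5:87554645-87569027, minus strand), had 0.52, 1.59, 0 and 0.28 CPM in neuronal agonist libraries, against 178, 4.97, 41.6 and 18.6 CPM in non-neuronal ones. Its lowest non-neuronal library was thus above its highest neuronal library, and the log2 fold change was -6.75 (SE 1.37, edgeR adjusted p = 0.00446), or -5.20 without non-neuronal agonist library 1, with the call kept. After corn oil it had 0 to 1.32 CPM in neuronal libraries and 3.09 to 24.6 CPM in non-neuronal libraries, and it did not pass the filter. Sult1a1, the main phenol sulfotransferase, had 0.26, 0.91, 2.66 and 8.47 CPM in neuronal agonist libraries, against 27.3, 29.8, 12.8 and 102 CPM in non-neuronal ones. With corn oil it had 3.48, 3.16, 3.26 and 3.76 CPM in neuronal libraries and 21.0, 12.1, 129 and 13.9 CPM in non-neuronal libraries. The neuronal corn oil libraries agreed closely with each other while the non-neuronal ones ranged widely. The log2 fold changes of Sult1a1 were -3.93 (SE 1.17, adjusted p = 0.0357) under the agonist and -3.69 (SE 0.79, adjusted p = 0.00374) under corn oil. The agonist call of Sult1a1 was lost without neuronal agonist library 1, 2 or 3 (edgeR adjusted p = 0.0588, 0.103 and 0.0938) or non-neuronal agonist library 4 (0.140). Sult1a1 overlaps the antisense gene Sgf29. Sult1b1, which sulfates thyroid hormones and phenols, had no count in neuronal agonist libraries and 998 counts in non-neuronal ones, at least 275-fold lower in neuronal nuclei. Non-neuronal agonist library 1 alone had 269 CPM of Sult1b1, and the other 3 had 56.7, 0.51 and 13.5 CPM. Without library 1 the bound was 76.8-fold.

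Of the membrane-bound enzymes, Mgst2, which can also join glutathione to leukotriene precursors, was lower in neuronal nuclei under both treatments. It had 0, 0, 0.27 and 7.06 CPM in neuronal agonist libraries, against 62.6, 61.3, 11.3 and 128 CPM in non-neuronal ones. With corn oil it had 4.81, 1.32, 7.53 and 2.69 CPM in neuronal libraries and 52.6, 85.1, 245 and 68.8 CPM in non-neuronal libraries. No neuronal library reached the lowest non-neuronal one, and the log2 fold changes were -5.30 (SE 1.45, edgeR adjusted p = 0.0233) under the agonist and -4.79 (SE 0.64, adjusted p = 0.000154) under corn oil. The agonist call of Mgst2 was lost without neuronal agonist library 2 or 3 (adjusted p = 0.0508 and 0.0617) or non-neuronal agonist library 4 (0.0661); without neuronal agonist library 4, the only one above 0.3 CPM, the log2 fold change was -9.26. Mgst1, a detoxifying enzyme of the endoplasmic reticulum and outer mitochondrial membrane, had 0, 0.68, 0 and 0 CPM in neuronal agonist libraries and 18.9, 11.2, 6.42 and 34.1 CPM in non-neuronal ones. Its neuronal total was 3 counts against 262, a ratio of 0.0138 (95% counting interval 0.00284 to 0.0409), and it was called (adjusted p = 0.0111).

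The summed soluble GST genes were lower in every neuronal library than in any non-neuronal one, but not every gene followed. Their sum was 32.5 to 60.5 CPM in neuronal and 83.9 to 242 CPM in non-neuronal libraries after corn oil. After the agonist it was 38.6 to 68.9 CPM in neuronal and 123 to 999 CPM in non-neuronal libraries (123 to 227 CPM without non-neuronal agonist library 1). Gstp1, the pi-class enzyme of many non-hepatic tissues (chr19:4035407-4037985, minus strand), had 27.9, 13.9, 7.19 and 13.6 CPM in neuronal agonist libraries, against 102, 21.5, 16.7 and 11.3 CPM in non-neuronal ones. After corn oil it had 11.2, 6.58, 24.6 and 11.3 CPM in neuronal libraries and 9.79, 13.2, 26.0 and 17.3 CPM in non-neuronal libraries. The groups overlapped under both treatments, and the log2 fold changes of -1.497 (SE 0.91, edgeR adjusted p = 0.336) and -0.32 (SE 0.59, adjusted p = 0.748) were not called. Without non-neuronal agonist library 1 the agonist difference of Gstp1 was -0.23. Gsta3, an alpha-class enzyme known in mice for clearing aflatoxin epoxide, likewise differed by -0.71 (SE 1.38) under the agonist and -0.87 (SE 0.78) under corn oil, and Gstm5, a mu-class gene with an antisense neighbour (4933431E20Rik), by -0.18 (SE 1.08) under corn oil, none of them called. Of Gstp1, 29.2% of the windows are shared with another gene.

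Other soluble GSTs were lower in neuronal nuclei. Gstm1, the leading mu-class enzyme, had 11.1, 10.2, 1.60 and 9.60 CPM in neuronal agonist libraries, against 112, 16.6, 51.1 and 118 CPM in non-neuronal ones, a log2 fold change of -3.36 (SE 0.87, edgeR adjusted p = 0.0172). That call was lost without neuronal agonist library 3 (adjusted p = 0.0515) or non-neuronal agonist library 4 (0.0541). After corn oil Gstm1 had 9.09, 2.63, 12.6 and 4.84 CPM in neuronal libraries and 5.88, 7.83, 30.2 and 103 CPM in non-neuronal libraries, which overlap, and the difference of -2.32 (SE 0.85, adjusted p = 0.0631) was not called. Gstm3, a further mu-class gene, differed by -6.57 (SE 1.66, adjusted p = 0.0152) under the agonist. It rested on non-neuronal agonist library 1, which had 164 CPM beside 5.38, 10.8 and 2.88 CPM in the other 3, and without that library the difference was -3.65 (adjusted p = 0.169).

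The theta class, which acts on small halogenated compounds and sulfate esters, gave calls under corn oil. Gstt3 had 0, 1.05, 0.75 and 0.54 CPM in neuronal corn oil libraries, against 14.8, 29.6, 28.8 and 4.13 CPM in non-neuronal corn oil libraries (log2 fold change -4.99, SE 0.98, edgeR adjusted p = 0.00212). Gstt2 had 4.81, 1.32, 3.01 and 2.42 CPM in neuronal corn oil libraries and 18.7, 9.26, 33.3 and 14.2 CPM in non-neuronal ones (log2 fold change -2.70, SE 0.70, adjusted p = 0.0119). Under the agonist Gstt3 differed by -2.04 (SE 1.67) and Gstt2 by -3.22 (SE 1.37), neither called. Whether the population difference of Gstt3 or Gstt2 depends on treatment was tested in the fit of all 16 libraries, and no difference was called (Gstt3 3.04, SE 2.01, adjusted p = 0.749; Gstt2 -0.39, SE 1.45, adjusted p = 0.982). Gsto1, an omega-class enzyme with thioltransferase and dehydroascorbate reductase activity, had 0.52, 0.23, 0.27 and 5.08 CPM in neuronal agonist libraries and 84.2, 15.7, 27.7 and 10.6 CPM in non-neuronal ones (log2 fold change -4.65, SE 1.31, adjusted p = 0.0271). Its call was lost without neuronal agonist library 1, 2 or 3 (adjusted p = 0.0622, 0.079 and 0.079) or non-neuronal agonist library 1 (0.103). After corn oil Gsto1 had 2.41, 12.4, 1.76 and 1.34 CPM in neuronal libraries and 6.2, 5.3, 13.4 and 15.5 CPM in non-neuronal libraries, which overlap. That difference of -1.185 (SE 0.86, edgeR adjusted p = 0.360) was not called. Gstk1, the kappa-class enzyme of mitochondria and peroxisomes, had no count in neuronal agonist libraries and 129 in non-neuronal ones, at 30.3, 0, 0.51 and 8.18 CPM in libraries 1 to 4. After corn oil Gstk1 had 14 counts in neuronal and 23 in non-neuronal libraries, and the libraries overlapped.

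Epithelial markers are given beside the UGT and SULT1 genes, library by library. The 25 UGT and SULT1 genes summed to 2677, 526, 381 and 635 CPM in agonist libraries 1 to 4, beside 6554, 3713, 1564 and 4397 CPM of the 16 epithelial markers. In corn oil libraries 1 to 4 they summed to 450, 370, 625 and 161 CPM, beside 6919, 6261, 17200 and 2082 CPM of the markers. Within each of these groups, the order of the 4 libraries was the same by these sums. By the 12 epithelial markers outside the goblet cell list, which had 2118, 991, 528 and 680 CPM in agonist libraries 1 to 4 and 591, 768, 1382 and 266 CPM in corn oil libraries 1 to 4, the order differed in both groups. In neuronal libraries, with 1.81 to 19.3 CPM of the UGT and SULT1 genes, the order was not the same. The part of epithelial RNA in the difference between the populations was not tested. The epithelial markers were also lower in neuronal nuclei, 13 of 13 tested under corn oil and 10 of 13 under the agonist. So were markers of smooth muscle (12 of 12 and 10 of 12) and of fibroblasts (9 of 9 and 7 of 8).

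**Figure D4:**
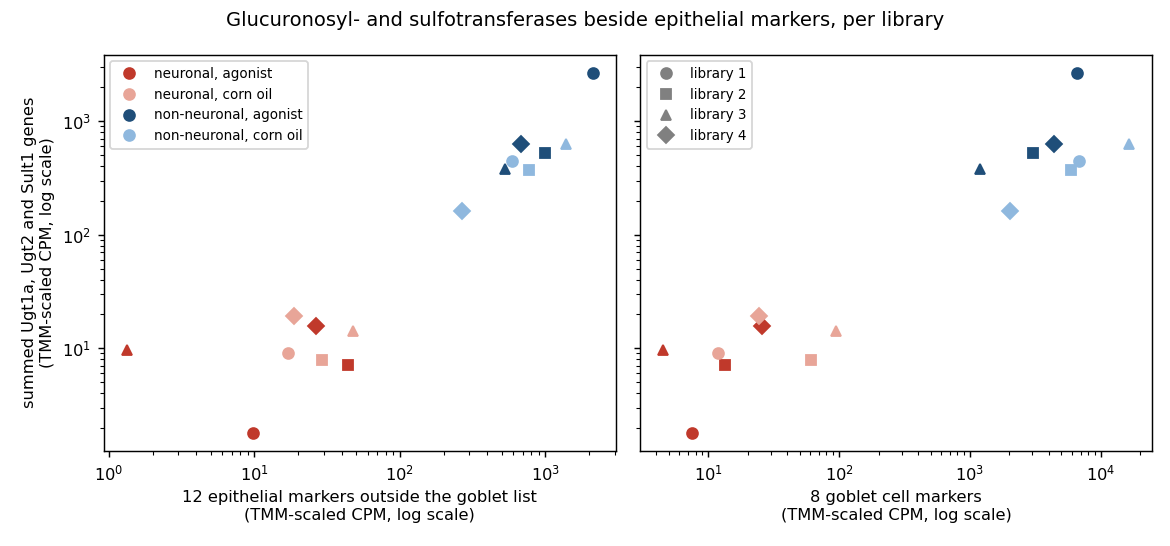
Summed level of the 25 UGT and SULT1 genes (y axis, TMM-scaled CPM, log scale) against 12 epithelial markers outside the goblet cell list (left) and 8 goblet cell markers (right), both in TMM-scaled CPM on log scales; each point is 1 library. Neuronal libraries lie at the lower left, below 20 CPM, and non-neuronal agonist library 1 lies highest, at 2677 CPM.

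The agonist comparisons ask whether AhR activation changes these genes within each population. The AhR target Cyp1a1 had 2.58, 6.37, 6.66 and 8.19 CPM in neuronal agonist libraries and none after corn oil; it had 10.4, 7.87, 160 and 157 CPM in the non-neuronal libraries after the agonist, against 0, 0, 0.28 and 0 CPM after corn oil, where it was called (edgeR adjusted p = 0.0396). In neuronal nuclei Ahrr, the AhR repressor that AhR itself induces, had 55.8, 57.8, 57.3 and 64.4 CPM after the agonist against 7.76, 7.90, 2.51 and 15.3 CPM after corn oil, without overlap and without passing the adjustment (adjusted p = 0.574). In non-neuronal nuclei Ahrr had 8.76, 4.14, 13.1 and 0.66 CPM after the agonist against 18.5, 2.49, 16.2 and 13.2 CPM after corn oil, which overlap (log2 fold change -0.84, SE 1.15). Of these targets, Cyp1a1 was higher in every agonist library than in any corn oil library of its population, in both populations. Ahrr was so in neuronal nuclei only. Cyp1a1, Ahrr and the other listed AhR targets, 7 in all, summed to 100 to 215 CPM in neuronal agonist libraries. After corn oil the neuronal sum was 39.7 to 55.9 CPM. In non-neuronal nuclei the sum was 102 to 313.5 CPM after the agonist and 22.4 to 62.4 CPM after corn oil. Tiparp, another of the 7, had log2 fold changes of 1.21 (SE 0.38) in neuronal and 2.16 (SE 0.58) in non-neuronal nuclei, neither called.

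In neuronal nuclei no conjugating gene was called after the agonist. Only 6 of the 49 passed the filter: 0 were called by edgeR, 0 had an unadjusted p under 0.05, and none of the 14182 genes tested was called (0%). None of the 6 had groups that did not overlap, beside 1.45% of all genes with the agonist higher and 2.17% with it lower. Of the 6, 3 had a positive log2 fold change, agonist over corn oil, and the median was 0.01 beside 0.08 over all genes. The largest were Mgst2 (-1.15, SE 1.35), Gsta3 (0.50, SE 0.87) and Gstm5 (-0.33, SE 0.94). Gsta3 had 1.29, 21.2, 8.79 and 3.67 CPM after the agonist and 8.29, 2.11, 9.54 and 4.57 CPM after corn oil, and Gstm5 had 1.03, 7.74, 1.07 and 7.06 CPM against 10.7, 5.26, 4.27 and 1.08 CPM. Both genes varied more within a group than between groups, and their sign turned with single libraries: without neuronal agonist library 2, Gsta3 was at -0.42, and without neuronal corn oil library 1, Gstm5 was at 0.26. Gstp1 (0.22, SE 0.60) and Gstm1 (0.16, SE 0.77) had differences smaller than their SE. The SEs of these genes, 0.60 to 1.35 on the log2 scale, set the size of change that could be seen at this depth.

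In non-neuronal nuclei 26 of the 49 genes passed the filter and none was called by edgeR after the agonist, beside 2 of 14846 genes (0.0135%). An unadjusted p under 0.05 was reached by 2 of them, Gstm3 and Sult1d1. Of the 26, 23 had a positive log2 fold change, with a median of 1.19 beside 0.13 over all genes. Without agonist library 1, 27 genes passed the filter, 19 were positive and the median was 0.32. None of the 26 genes had agonist and corn oil libraries that did not overlap, as 1.13% of all genes did with the agonist higher and 2.3% with the agonist lower.

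**Figure D5:**
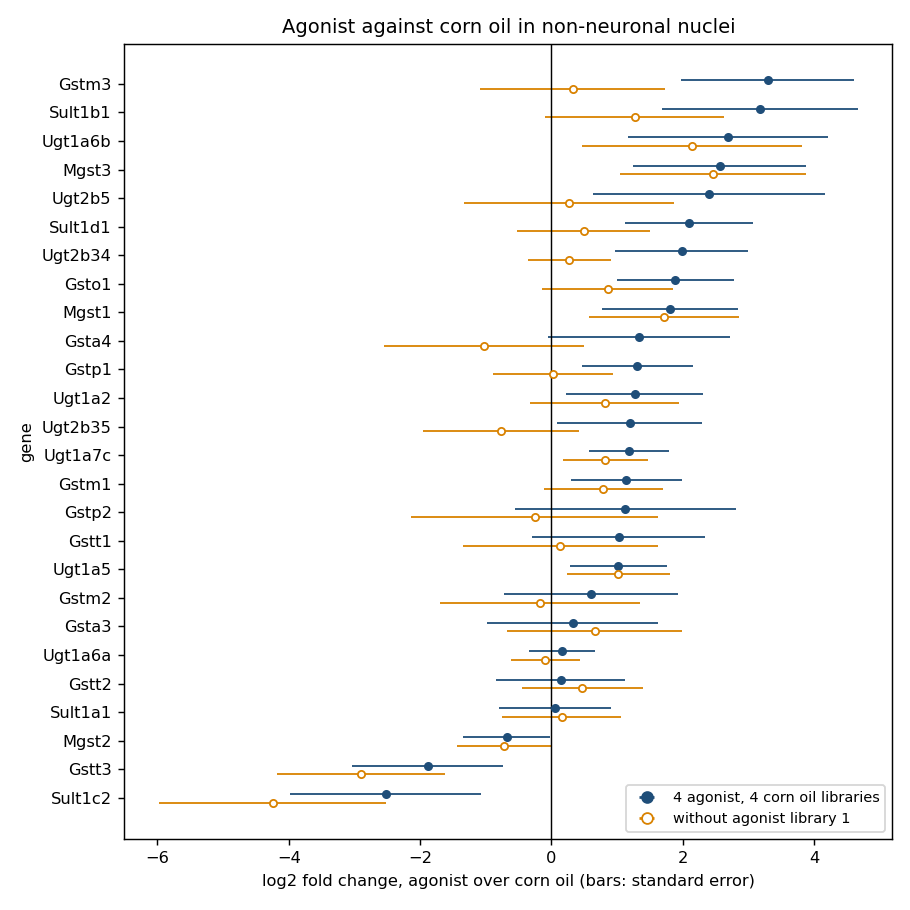
Log2 fold change, agonist over corn oil, of the 26 genes tested in non-neuronal nuclei (x axis; bars are the standard error), from 4 agonist and 4 corn oil libraries (filled) and without agonist library 1 (open). The estimates of Gstm3, Sult1d1 and Ugt2b34 move from 3.29, 2.09 and 1.99 to 0.32, 0.49 and 0.27 when that library is left out.

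Among the genes with the largest differences, Gstm3 and Sult1b1 moved most without that library and Ugt1a6b less. Gstm3 had 164, 5.38, 10.8 and 2.88 CPM in agonist libraries, against 5.32, 1.07, 13.1 and 0.77 CPM in corn oil libraries, a log2 fold change of 3.29 (SE 1.31, edgeR adjusted p = 0.954) that was 0.32 without agonist library 1. Sult1b1 had 269, 56.7, 0.51 and 13.5 CPM in agonist libraries, against 2.24, 4.27, 33.6 and 1.03 CPM in corn oil libraries, a log2 fold change of 3.17 (SE 1.49, adjusted p = 0.954) that was 1.27 without library 1. Leaving out agonist libraries 1 and 2, in which mitochondrially encoded genes took over 30% of counts, turned Sult1b1 to -0.56. Sult1d1 had a log2 fold change of 2.09 (SE 0.97), or 0.49 without library 1. Ugt1a6b had 25.9, 0, 3.34 and 27.2 CPM in agonist libraries, against 2.24, 0, 4.19 and 2.84 CPM in corn oil libraries. Its log2 fold change was 2.69 (SE 1.52), or 2.14 without library 1, and 74.8% of its windows are shared within the Ugt1a cluster. Gsta1, an alpha-class enzyme known as an AhR target in rodent liver, had 293 CPM in agonist library 1 and 0 in the other 3, against 0.28, 1.07, 3.36 and 0 CPM in corn oil libraries. It did not pass the filter, and 84.7% of its windows are shared with other genes of the Gsta cluster.

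Ugt1a6a, the other textbook AhR target among these genes, had similar means in non-neuronal nuclei, with 70.7 ± 27.9 CPM after the agonist and 66.3 ± 12.4 CPM after corn oil (SD, n = 4 each; log2 fold change 0.17, SE 0.50, edgeR adjusted p = 0.992). For the Ugt1a sum, agonist libraries had 299 ± 125 CPM (244 ± 74.0 CPM without library 1, n = 3) and corn oil libraries 164 ± 48.9 CPM. Mgst2 (-0.68, SE 0.66), Gstt3 (-1.89, SE 1.15) and Sult1c2 (-2.52, SE 1.46) were the 3 genes with a negative log2 fold change. Without agonist library 1, Gstt3 was at -2.90, Sult1c2 at -4.25 and Gsto1 at 0.85, none of them called. With all libraries, Mgst1 (1.81, SE 1.03) and Gsto1 (1.89, SE 0.89) had positive log2 fold changes, as did Ugt1a7c (1.18, SE 0.61) and Ugt1a5 (1.02, SE 0.74), none of them called.

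Of the 16 epithelial markers, 8 were highest in agonist library 1, 2 in library 2, 1 in library 3 and 5 in library 4. Vil1, the villin of the brush border, for example had 708, 53.4, 5.14 and 28.8 CPM in agonist libraries 1 to 4, against 43.9, 76.2, 111 and 7.22 CPM in corn oil libraries, while Car1, a carbonic anhydrase of colonocytes, had 24.6, 248, 96.1 and 4.87 CPM against 127, 76.2, 393 and 53.9 CPM. The mucin gene Muc2 of goblet cells had 3159, 2340, 883 and 2947 CPM in agonist libraries and 5420, 4526, 12860 and 1451 CPM in corn oil libraries. The whole epithelial list had a median log2 fold change of 0.64, agonist over corn oil, with 0 of 16 called. In the ratio of the UGT and SULT1 sum to the epithelial sum, a measure chosen after the values were seen, agonist libraries stood at 40.8%, 14.2%, 24.4% and 14.5% and corn oil libraries at 6.51%, 5.91%, 3.64% and 7.74%. These do not overlap, but with the 4 goblet cell genes left out of the markers the ratios were 126%, 53.1%, 72.2% and 93.4% after the agonist and 76.2%, 48.1%, 45.3% and 60.5% after corn oil, which do. The part of the cell makeup in the agonist values was not tested.

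The difference of the agonist response between the populations, neuronal minus non-neuronal, was fitted over all 16 libraries. Of 29 members tested, 0 were called by edgeR, as was none of the 18566 genes (0%), and 4 had an unadjusted p under 0.05. These 4, named after their values were seen, were Ugt1a2 (-6.21 on the log2 scale, SE 2.07, adjusted p = 0.462), Sult1b1 (-7.09, SE 2.62, 0.529), Gstt1 (-4.62, SE 1.94, 0.572) and Gsto1 (-3.38, SE 1.49, 0.576). Without non-neuronal agonist library 1 they stood at -5.90, -5.31, -3.77 and -2.38, and Gstt1 and Gsto1 had an unadjusted p of 0.0747 and 0.146. Ugt1a2 had no count in neuronal agonist libraries and 17 in neuronal corn oil libraries, and 75.4, 50.1, 49.6 and 0.44 CPM in non-neuronal libraries after the agonist, against 21.0, 20.7, 33.3 and 2.06 CPM after corn oil.

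The genes that supply and remove the conjugates were followed as lists in the same fits. After the agonist none of them was called in neuronal nuclei or in non-neuronal nuclei. Between the populations their counts stand beside 13.5% lower and 11.8% higher of all genes tested under corn oil, and 6.97% lower and 6.67% higher under the agonist. For glucuronidation, 2 of 6 genes tested under corn oil and 1 of 6 under the agonist were lower in neuronal than in non-neuronal nuclei: Ugp2, which makes UDP-glucose, differed by -1.85 (SE 0.43, edgeR adjusted p = 0.00605) under corn oil, and Slc35d1, a transporter of UDP-glucuronic acid into the endoplasmic reticulum, by -1.27 (SE 0.41) under corn oil and -1.92 (SE 0.58) under the agonist. For sulfation, 2 of 7 were lower under corn oil and 1 of 7 under the agonist. The sulfate transporter Slc26a2 had 31.5, 50.7, 24.5 and 32.5 CPM in neuronal agonist libraries against 280, 395, 320 and 175 CPM in non-neuronal ones, a log2 fold change of -3.23 (SE 0.46, adjusted p = 0.000405), and -2.71 (SE 0.33) under corn oil. Papss2, which makes the sulfate donor, differed by -1.72 (SE 0.49) under corn oil and had 3220 CPM in non-neuronal agonist library 1, against 33.8 to 130 CPM in the other 3 of that group. Of the glutathione genes, 1 of 10 was lower and 1 of 10 higher under corn oil and 2 of 11 were lower under the agonist; Anpep, an aminopeptidase of the brush border, was lower under both treatments (-10.02 and -4.87), Ggt5 under the agonist, and Ggt7 was higher under corn oil (3.65, SE 1.06).

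The exporters of conjugates divided by population. Abcc3, an exporter of glucuronides, had 6.45, 0.23, 0 and 0.28 CPM in neuronal agonist libraries against 102, 25.7, 47.8 and 49.1 CPM in non-neuronal ones, and was lower in neuronal nuclei under the agonist (-5.21, SE 1.301, edgeR adjusted p = 0.0143) and under corn oil (-6.56, SE 0.72, adjusted p = 3.73e-05). Abcc5, which exports organic anions including cyclic nucleotides, had 398, 328, 290 and 370 CPM in neuronal agonist libraries against 112, 52.6, 139 and 36.9 CPM in non-neuronal ones, and was higher in neuronal nuclei under both treatments (1.88, SE 0.45, and 1.67, SE 0.36). The glutathione conjugate exporter Abcc1 was higher in neuronal nuclei under corn oil (1.42, SE 0.26, adjusted p = 0.00122). In all, neuronal nuclei had 2 of 9 tested exporters higher and 5 lower under corn oil, and 1 of 8 higher and 2 lower under the agonist. Over all genes tested, 11.8% were higher and 13.5% lower under corn oil, and 6.67% and 6.97% under the agonist. The same shares stand beside the counts that follow. Of the genes outside these families that are known targets of NRF2, a transcription factor activated by electrophiles, 2 of 9 under corn oil and 2 of 10 under the agonist were lower in neuronal nuclei, in both cases Prdx1 and Nfe2l2, the gene of NRF2 itself. Of other conjugating families, 1 of 6 genes tested was lower under corn oil (Hpgds, -2.05, SE 0.64) and 0 of 7 were called under the agonist.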

How the data were processed

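Nuclear RNA was made into cDNA by an amplifying kit and sequenced as 75-base single-end reads, per the labels' protocols. The authors deposited 1 table of expected counts per Ensembl gene and library, not scaled to library size; RSEM 1.3.0, STAR 2.5.2 and GRCm38 are named in the submitters' processing notes, as is DESeq2 1.10.1, while annotation release and strandedness are not stated in the sources used here. Per library, 89.2% to 94.3% of the values are whole numbers. The column headers also name a project on AhR knockout against wild-type mice that the labels do not explain; groups were taken from the labels.

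Symbols came from GENCODE M21 by identifier (51719 matched, 193 did not). Expected counts were rounded and fitted in edgeR 4.0.16 under R 4.3.3 (TMM, robust quasi-likelihood F-test, two-sided), with filterByExpr at a minimum count of 10 and a total of 15, and a gene was called where its Benjamini-Hochberg adjusted p, over all genes tested, was under 0.05. The SE is the log2 fold change divided by the square root of F. Of the 5 comparisons, the difference of responses used all 16 libraries and the others 8 each. Levels use TMM factors of all 16 libraries. The fits were run on simulated counts in which all genes shared the same dispersion and no library stood apart. That run does not measure their error rates in these data.

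Named genes are those called in any comparison, the highest of each family, and the 3 largest changes in each agonist comparison, 20 in all. Others were named after their values were seen, as in the bounds and the promoters. The genes and lists were chosen with earlier results of these data known. The 2 libraries of every pair within a group differed by more than sampling noise (chi-square per degree of freedom at least 9.67). Intervals cover counting error only. Deviations of same-numbered libraries from their group means had correlations of -0.106 to 0.179. With 4 libraries per group, these cannot show whether neuronal and non-neuronal libraries of the same number came from the same mice. Replicate numbers were not taken as pairs in the main fits. Alternatives were other scalings, no count filter, DESeq2 1.42.0, 1 fit of all groups, a replicate block, leaving out libraries over 30% mitochondrial counts, and leaving out each library.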

Additional observations from a re-analysis of the deposited data

Results flagged for a closer look

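Within groups of 4 libraries, 84 sets of levels were examined for a library far from the other 3, and 18 had one. The rule's rate of about 1 in 20 holds for independent, normally distributed values. These levels are skewed, some sums contain others, and some genes were named for a high mean or a large change. The 18 therefore cannot be set against that rate. Of the 18, 6 fell on non-neuronal agonist library 1 and 5 on non-neuronal corn oil library 3. In non-neuronal agonist library 1 the 49 genes together had 3785 CPM (596 to 1092 CPM in the other 3), the UGT and SULT1 sum 2677 CPM (381 to 635 CPM), the soluble GST sum 999.2 CPM (123 to 227 CPM), Gsta1 293 CPM (0 CPM), Gstm3 164 CPM (2.88 to 10.8 CPM) and Gstp1 102 CPM (11.3 to 21.5 CPM).

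In non-neuronal corn oil library 3, which also had the highest epithelial sum (17200 CPM), the Mgst sum stood at 264 CPM (60.7 to 89.4 CPM in the other 3), Mgst2 at 245 CPM (52.6 to 85.1 CPM), Sult1a1 at 129 CPM (12.1 to 21.0 CPM), Ugt1a6a at 84.7 CPM (58.2 to 62.7 CPM) and Sult1b1 at 33.6 CPM (1.03 to 4.27 CPM). Gstm5 reached 19.3 CPM in non-neuronal corn oil library 4 (0.28 to 2.52 CPM in the others).

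In neuronal libraries the levels that stood apart were low. In agonist libraries, Gsto1 had 5.08 CPM in library 4 (0.23 to 0.52 CPM in the others), Mgst2 7.06 CPM in library 4 (0 to 0.27 CPM), Gstt3 5.23 CPM in library 2 (0 CPM), and Gstm1 1.60 CPM in library 3 (9.60 to 11.1 CPM). In corn oil libraries, Gsto1 had 12.4 CPM in library 2 (1.34 to 2.41 CPM) and Gsta1 had 3.16 CPM in library 2 (0 to 0.53 CPM).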

How the results depend on the processing

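The number of genes of these families lower in neuronal nuclei under corn oil was 8, and 20 with no filter on low counts, 14 with all 4 groups in 1 fit and 8 to 13 with each library left out. Under the agonist it was 11, and 18 with no filter, 19 with all 4 groups in 1 fit and 9 to 14 with each library left out. The lowest number under any alternative was 8 for the agonist comparison. The replicate block gave 8 under corn oil and 10 under the agonist, where Gstm3 was lost; it changed no other call. Ugt2b34, Ugt1a6a, Ugt1a5 and Ugt1a7c were called in both population comparisons under every alternative run, as were Gstt3 and Mgst2 under corn oil and Mgst1 and Sult1d1 under the agonist. With all 4 groups in 1 fit, Gstt2 was not called under corn oil (edgeR adjusted p = 0.0895). Under the agonist, without libraries over 30% mitochondrial counts, Gstm3 (adjusted p = 0.240), Gsto1 (0.150), Sult1a1 (0.0548) and Mgst2 (0.0623) were not called; with library size only, neither were Gsto1 (0.0691) and Sult1a1 (0.0728); with the replicate block, Gstm3 had 0.0594.

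In both agonist comparisons 0 genes of these families were called under every alternative, DESeq2 included. In the difference of responses the count was 0, and 1 with no filter (Sult1b1, adjusted p = 0.0106), with 0 for every library left out. Signs turned for Gsta3 in neuronal nuclei with the replicate block (-0.016 against 0.50) and over libraries left out (-0.42 to 0.87), for Gstm5 over libraries left out (-0.80 to 0.26), and for Sult1b1 in non-neuronal nuclei without libraries over 30% mitochondrial counts (-0.56 against 3.17); the cause was not tested. The genes of the whole table called moved further: 0 in neuronal nuclei after the agonist became 152 with no filter and 9 with DESeq2, and 2 in non-neuronal nuclei became 88, 35, 11 with all 4 groups in 1 fit, 0 by library size only, 1 without libraries over 30% mitochondrial counts and 0 to 2 over libraries left out. Between populations under the agonist 1918 became 3324 with no filter, 2937 with DESeq2 and 4590 with all 4 groups in 1 fit. In the difference of responses 0 became 110, 103, 7 without libraries over 30% mitochondrial counts and 9 without non-neuronal agonist library 3. Positive log2 fold changes numbered 3 of 6 in neuronal nuclei, and 17 of 41 with no filter, 11 of 29 with all 4 groups in 1 fit and 1 to 4 over libraries left out; in non-neuronal nuclei they numbered 23 of 26, and 38 of 48 with no filter, 18 of 31 without libraries over 30% mitochondrial counts and 19 to 24 over libraries left out.

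In neuronal nuclei 6 of the 49 genes passed the filter in the agonist comparison. The others had too few counts there, or counts in too few libraries, to be tested.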
